A study of Caenorhabditis elegans with 6 samples.

Results

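Of the 14525 peaks that the authors called on the pooled reads of an ELT-3 chromatin immunoprecipitation sequencing (ChIP-seq) experiment, 469 (3.23%) had their summit within 200 bp of a gene for a transfer RNA (tRNA), a small nucleolar RNA (snoRNA) or a small nuclear RNA (snRNA), the spliced leader RNA genes among the last. A summit is the base of highest signal that the peak caller reports in a peak, and the distance was measured to the nearest end of the annotated gene, with 0 for a summit inside it. The summits fell into 295 at tRNA genes, 129 at snoRNA genes and 46 at snRNA genes, with 1 summit near genes of both the first and the last kind. Peak strength was not used to choose them. The pooled list is labelled as peaks and background for the authors' test of reproducibility, so it also holds weak entries. The tRNA summit of median signal, at rank 3219, had a deposited −log10 q-value of 0.553, which is a q-value above 0.05. A summit in this list is therefore not by itself a sign of significant binding. The edge of the rule was thinly filled, with 16 tRNA, 6 snoRNA and 1 snRNA summits at 151 to 200 bp, and 7, 8 and 0 just outside it at 201 to 250 bp.

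ELT-3 is a transcription factor of the GATA family that is known from the epidermis of Caenorhabditis elegans. The 6 libraries made 1 group of 4 biological replicates, numbered 1, 2, 4 and 5, of which replicate 2 was sequenced as 3 technical libraries and counted once. All came from strain OP75, genotype unc-119(ed3) III; wgIs75, a stable transgenic line with GFP and FLAG fused to the C-terminal end of ELT-3. The labels give elt-3 as the antibody target, and the chromatin was that of whole L3 larvae of both sexes, sheared by sonication. Every sample carried the transgene and the unc-119 allele, and no second condition was measured. In chromatin of whole animals, occupancy in a few cells and weak occupancy in many cells cannot be told apart. The authors' shorter list, called optimal, holds the peaks that passed their test of reproducibility, and its 1047 peaks are the 1047 strongest of the pooled list. Peak strength is the authors' signal value, and it is compared only within 1 list. Each replicate list held 30000 peaks, and for each replicate its 1047 strongest nuclear peaks were used as its strongest set. The read depth is unknown.

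tRNA genes are transcribed by RNA polymerase III from promoter elements inside the gene, the A box near its start and the B box near its end, which the factor TFIIIC recognises. snoRNAs guide the chemical modification of ribosomal RNA, and their genes lie either in introns of protein-coding genes or in transcription units of their own. snRNAs are the RNA parts of the spliceosome, and most of their genes have a promoter just upstream that the snRNA activating complex binds. The spliced leader RNAs belong to this last group in nematodes, where they donate the first exon in trans-splicing, the sls-1 genes for most trans-spliced messages and the sls-2 genes for downstream genes of operons.

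The following sequences show what lies at a summit in each kind of gene, in ce11 (the WBcel235 assembly, sequence from RefSeq), 5′ to 3′ on the strand of the gene. Capitals mark the annotated gene and lower case the bases next to it that reach to 30 bp past the summit. The snoRNA genes and the snRNA gene are among those with the 8 strongest peaks of their kind. A gene is named only where at least 80% of the words of 36 bases within 100 bp of the summit occur at 1 place in the genome, and none of the 8 strongest tRNA peaks met this. The tRNA gene shown is therefore at a weaker peak, chosen after values were seen, that met it and was clear of annotated untranslated regions. The serine tRNA gene F42A10.t2 (chrIII:6158965-6159050, plus strand) had its summit at base 34 of the sequence, inside the gene, and a match to the B box word GTTCGANNC at bases 66 to 74.
F42A10.t2: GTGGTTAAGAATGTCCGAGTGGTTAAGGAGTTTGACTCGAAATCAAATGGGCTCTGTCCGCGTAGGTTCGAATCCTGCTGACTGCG
The stretches at the snoRNA genes M106.6 (chrII:10840247-10840391, plus strand, gene at 10840317 to 10840391) and C41C4.11 (chrII:8107196-8107355, minus strand, gene at 8107196 to 8107270) are shown because the B box word stands just before the gene and not inside it. In M106.6 the gene starts at base 71, the B box word is at bases 54 to 62 and the summit is at base 31. In C41C4.11 the gene starts at base 86, the word is at bases 74 to 82 and the summit is again at base 31.
M106.6: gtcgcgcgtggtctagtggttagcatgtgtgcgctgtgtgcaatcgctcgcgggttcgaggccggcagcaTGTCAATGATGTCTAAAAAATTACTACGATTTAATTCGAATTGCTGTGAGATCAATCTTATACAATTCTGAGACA
C41C4.11: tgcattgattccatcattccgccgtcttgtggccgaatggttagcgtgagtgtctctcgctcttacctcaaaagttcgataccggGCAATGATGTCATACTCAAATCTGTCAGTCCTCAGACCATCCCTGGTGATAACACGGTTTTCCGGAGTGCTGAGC
The snRNA gene sequence did not hold the word. In the stretch at the spliced leader gene sls-2.8 (chrIII:12250465-12250630, plus strand, gene at 12250465 to 12250575) the gene ends at base 111, and its summit lay past it at base 136.
sls-2.8: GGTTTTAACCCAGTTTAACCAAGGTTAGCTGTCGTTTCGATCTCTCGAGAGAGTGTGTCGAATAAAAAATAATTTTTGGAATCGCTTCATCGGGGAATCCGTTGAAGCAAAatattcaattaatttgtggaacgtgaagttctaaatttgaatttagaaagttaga

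A larger share of tRNA genes than of snoRNA or snRNA genes had a summit, whereas the snoRNA and snRNA summits were the stronger ones. A pooled summit lay within 200 bp of 321 of 612 nuclear tRNA genes (52.5%, Wilson 95% CI 48.5 to 56.4), of 121 of 346 snoRNA genes (35.0%, CI 30.1 to 40.1) and of 38 of 129 snRNA genes (29.5%, CI 22.3 to 37.8). The same distance from the 5′ ends of 19973 protein-coding genes held a summit in 9.38% of cases, and 40 of 261 microRNA genes (15.3%) had one. For the optimal list the shares of genes were 8.66% for tRNA, 13.3% for snoRNA and 10.9% for snRNA, against 0.976% of protein-coding 5′ ends. A 5′ end is a single base and a gene is longer, so the windows differ in length. Relative to the share of nuclear bases within 200 bp of such genes (0.272%, 0.182% and 0.0655%), summits were 7.46, 4.89 and 4.83 times as frequent at tRNA, snoRNA and snRNA genes. The intervals cover counting error only.

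Of the 469 peaks, 107 (22.8%, CI 19.2 to 26.8) were in the optimal list, against 7.21% of all pooled peaks and 6.69% of those at no such gene. They made up 10.2% of the optimal list. By kind, 46 of 129 snoRNA peaks (35.7%, CI 27.9 to 44.2), 17 of 46 snRNA peaks (37.0%, CI 24.5 to 51.4) and 44 of 295 tRNA peaks (14.9%, CI 11.3 to 19.4) were optimal. The tRNA interval lies below the other two. The median signal in the pooled list was 25.9 at tRNA genes, 28.5 at snoRNA genes and 33.0 at snRNA genes, where all pooled peaks had a median of 19.9. The highest was 76.7, 99.6 and 138, and the best rank 145, 59 and 18. Among the 100 strongest pooled peaks there were 0 at tRNA genes, 1 at a snoRNA gene and 4 at snRNA genes.

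**Figure D1:**
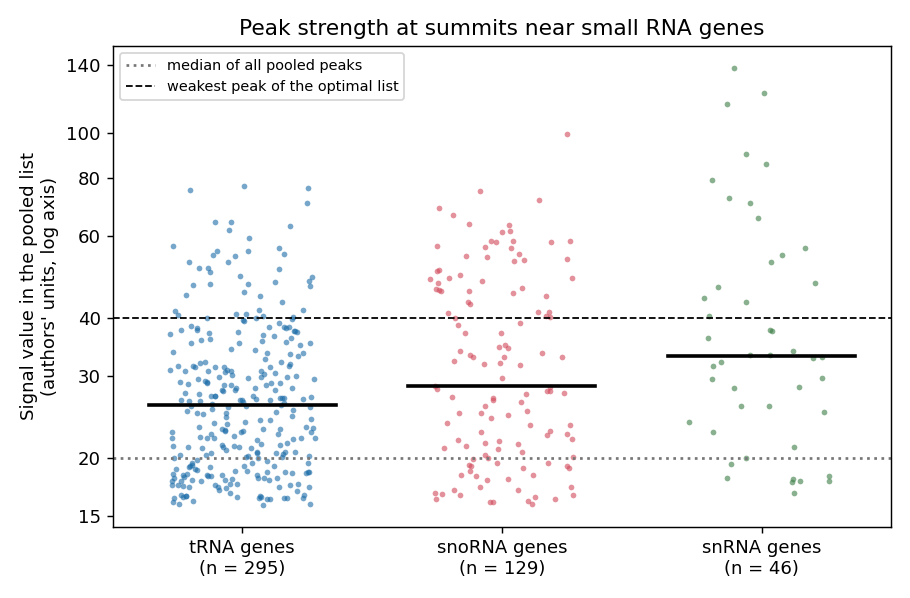
Signal value of each summit in the pooled list (log axis, authors' units), 1 point per summit, for 295 tRNA, 129 snoRNA and 46 snRNA summits, with the median of each kind as a black bar. The dotted line is the median of all pooled peaks (19.9) and the dashed line the weakest optimal peak (39.9), at or above which 44, 46 and 17 points lie.

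Repeated sequence is common among tRNA genes. The 612 tRNA genes hold 200 distinct sequences, and 469 of them share their whole sequence with another gene, against 0 of 346 snoRNA and 44 of 129 snRNA genes. The sources used here do not give how reads from repeats were placed, and each summit was therefore given the share of words of 36 bases within 100 bp of it that occur at 1 place in the genome. The median share was 74.7% at tRNA summits, 100% at snoRNA summits and 89.8% at snRNA summits, and 37.3%, 99.2% and 67.4% of them reached 80%. Of the 110 tRNA summits that reached it, 8 were optimal (7.27%, CI 3.73 to 13.7), a share near the 7.21% of all pooled peaks, and of the 185 that did not, 36 were (19.5%, CI 14.4 to 25.8). The median signal of these tRNA groups was 21.7 and 27.6. For the list as a whole the shares were 7.06% and 13.2%. Of the snRNA summits, 13 of 31 that reached it and 4 of 15 others were optimal. Whether a tRNA gene had any summit moved less with it, at 155 of 274 genes in windows of at least 80% (56.6%) and 166 of 338 in the others (49.1%). For snoRNA genes the shares were 37.1% and 10.7% (3 of 28), and for snRNA genes 35.4% and 25.9%. The share of unique words is taken around the summit, so it also depends on how far the summit lies from a repeated gene. The median distance to the gene was 17 bp over all tRNA summits and 2.5 bp over optimal ones. The parts of read placement and of this distance in these values were not tested.

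Among tRNA isotypes, named by the amino acid that the tRNA carries, the share of genes with a summit was spread widely. Valine tRNA genes had one in 21 of 31 cases (67.7%), glutamine in 18 of 27 (66.7%), tryptophan in 8 of 12 (66.7%), alanine in 22 of 34 (64.7%) and leucine in 25 of 39 (64.1%). The lowest shares were at tyrosine, with 4 of 19 (21.1%, CI 8.51 to 43.3), and phenylalanine, with 3 of 14 (21.4%, CI 7.57 to 47.6). Both upper bounds lie below the valine interval (50.1 to 81.4), but these groups were picked from 22 by their values, so the difference was not tested. Glycine, the isotype with the most genes, had 34 of 55 (61.8%). By number of summits, leucine came first with 27, then glycine with 26 and valine with 22. Over all 612 tRNA genes, 53 (8.66%) had an optimal summit. The most were at alanine, glutamine and leucine, 6 each of 34, 27 and 39 genes. None of the 31 valine, 44 arginine, 20 methionine or 12 tryptophan genes had one. These isotypes were picked by their values, and differences from the share over all tRNA genes were not tested. The 8 strongest tRNA peaks were at genes of the isotypes Asn (signal 76.7), Cys (76.1), Tyr (75.2), Lys (70.8), Pro (64.4 at 2 summits), Ile (63.1) and Glu (61.8). None of these 8 summits reached 80% unique words, so the genes are not named. The 1 selenocysteine tRNA gene and the 5 genes with no isotype in RefSeq had no summit.

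**Figure D2:**
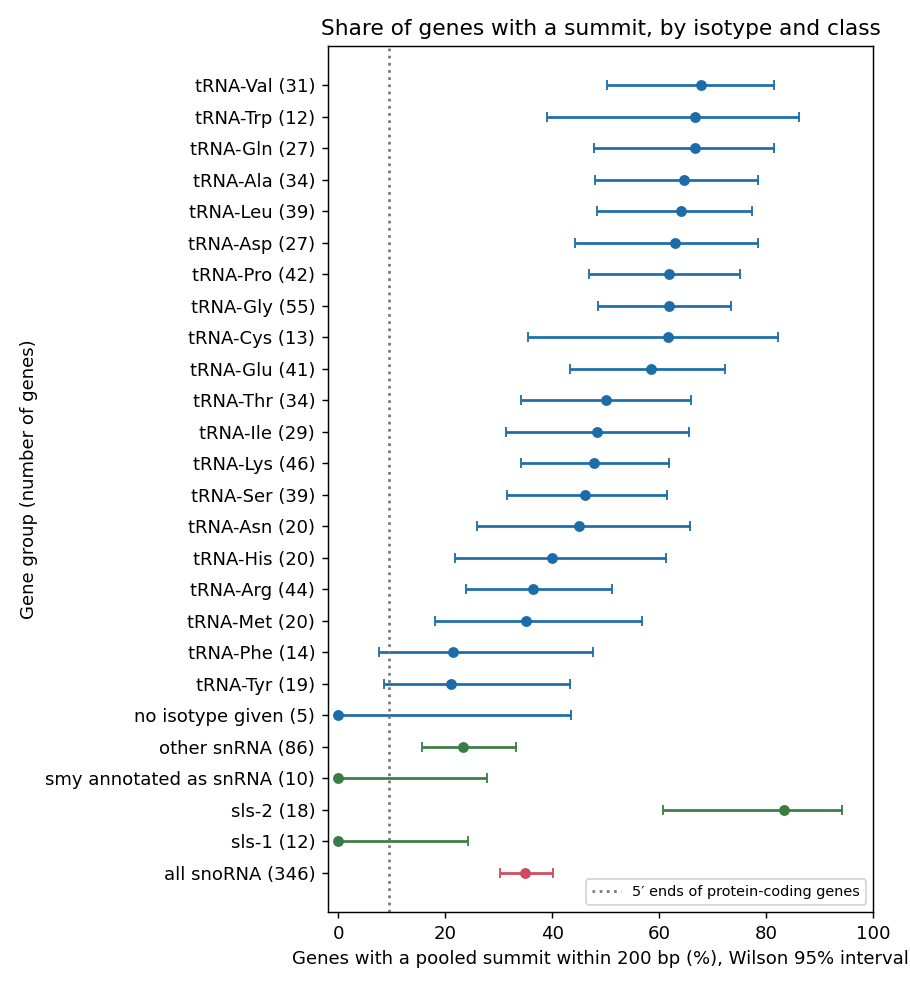
Percentage of genes with a pooled summit within 200 bp (x axis) for each tRNA isotype of at least 5 genes (blue), for snRNA classes (green) and for all snoRNA genes (red), with Wilson 95% intervals and the number of genes in brackets. The dotted line marks 9.38%, the share of protein-coding 5′ ends, and sls-2 stands at 83.3% while sls-1 and the smy genes annotated as snRNA stand at 0.

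The strongest tRNA peaks at genes that can be named were at F01G12.t1 and F42A10.t2, chosen after values were seen. F01G12.t1, a glutamic acid tRNA gene on X (16378113 to 16378184), lies inside the protein-coding gene sur-7, and its pooled summit (signal 57.0, rank 367) was 43 bp upstream of it. Its ranks in replicates 1, 2, 4 and 5 were 9022, 141, 962 and 708, so that replicates 2, 4 and 5 placed it in their strongest sets and replicate 1 did not. The F42A10.t2 summit shown above (signal 49.0, rank 592) ranked 404 in replicate 4 and 478 in replicate 5, and replicates 1 and 2 had no summit within 100 bp of it. A second tRNA gene lay within 200 bp of it, and the summit was also in the promoter of nfm-1.

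Among the snoRNA genes, the strongest peaks lay just upstream of the gene. RefSeq names them by clone only and gives none of them a target. The peak of T02E1.9 on I (gene at 8224474 to 8224544, outside protein-coding genes) had a pooled signal of 99.6 and ranked 59, and its ranks in replicates 1, 2, 4 and 5 were 102, 50, 166 and 378, all in the strongest sets. Y37E3.20 (signal 63.6), which lies inside pcyt-2.1, a gene of phospholipid synthesis, ranked 134, 766, 522 and 572, again in the strongest set of each replicate. No other snoRNA peak was in all 4. The M106.6 peak (signal 68.9), inside the condensin gene mix-1, ranked 65, 16367, 583 and 656, so replicate 2 stood far from the rest. C41C4.11 (signal 66.4) ranked 4914, 1601, 389 and 174, with replicates 4 and 5 alone placing it in their strongest sets. F59C6.15 (signal 74.9) had a matching summit in replicates 4 and 5 (ranks 464 and 194) and none in replicates 1 and 2. Y39G10AR.24 (signal 71.6) ranked 432, 701 and 245 in replicates 1, 4 and 5 and had no match in replicate 2. T06D8.11 (signal 63.4) and H09I01.2 (signal 61.5) completed the 8 strongest. At 7 of these 8 genes the summit was 8 to 70 bp upstream, and at T06D8.11 it was 146 bp past the gene's first base, beyond its end. At 5 of the 8 the gene lay outside protein-coding genes.

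Over all snoRNA genes, the place relative to protein-coding genes went with the share that had a summit. Of 183 snoRNA genes inside a protein-coding gene on the same strand, 53 had one (28.96%, CI 22.9 to 35.9). Of 33 inside one on the other strand, 14 had one (42.4%, CI 27.2 to 59.2), and of 130 outside, 54 had one (41.5%, CI 33.4 to 50.1). These intervals overlap. Of the 19 snoRNA genes inside ribosomal protein genes, 4 had a summit. For tRNA genes the shares were close, 51.4% inside and 53.4% outside protein-coding genes.

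The spliced leader genes of the sls-2 class stood at the top of the snRNA group, and those of the sls-1 class had no summit at all. A summit lay near 15 of 18 sls-2 genes (83.3%, CI 60.8 to 94.2), and 6 of these had an optimal one. In the whole lists of replicates 1, 2, 4 and 5, the number of sls-2 genes with a summit was 9, 11, 15 and 16, and in the strongest sets it was 5, 4, 5 and 4. The replicates thus differed in how many they listed, and hardly in how many were strong. All 12 sls-1 genes were without a summit in the pooled list and in each replicate list. Their windows held 0% unique words at the median, and whether any read was placed there was not tested. The 10 smy genes annotated as snRNA, for a small RNA that takes part in trans-splicing, also had none in the pooled list, in windows of 100% unique words at the median. The whole lists of the replicates had summits at 4, 0, 1 and 1 of these 10, and the strongest sets at none. The smy genes smy-2 and smy-3 are annotated as snoRNA and counted there, and both had a pooled summit (signals 19.9 and 32.9). That of smy-2 ranked 151 in replicate 1 and 8399 in replicate 5, and that of smy-3 ranked 221 in replicate 5, with no match in the other replicates. Of 86 other snRNA genes, 20 had a summit (23.3%, CI 15.6 to 33.2) and 6 an optimal one. Both genes named sup, known from suppressor mutations in snRNA genes, had an optimal summit.

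The strongest peak at any of these genes was at sls-2.4 (I, 4172206 to 4172315), with a pooled signal of 138 and rank 18. It ranked 16, 38, 117 and 202 in replicates 1, 2, 4 and 5, in the strongest set of each. The summit was 91 bp from the start of the gene, inside it, and also lay in the promoter of the egg activation gene egg-5. At sls-2.8 (signal 70.5) the ranks were 327, 1387, 403 and 80, and only replicate 2 placed it outside its strongest set. That summit lay 60 bp from the nearest protein-coding 5′ end, in the promoters of Y75B8A.23 and tim-1, the latter a gene of the Timeless family. The sls-2.2 and sls-2.1 genes had a summit on each side. Their stronger, upstream summits had under 80% unique words. Their summits past the gene had 100% and signals of 54.6 and 52.7, with ranks of 29, 543, 781 and 20023 for sls-2.2 and 29714, 100, 497 and 8545 for sls-2.1. The replicates disagreed here, since replicate 5 placed both far outside its strongest set and replicate 1 the second. The sls-2.15 peak (signal 47.5) had a match in replicates 1 and 5 only (ranks 502 and 9485), and the sls-2.16 peak (signal 40.3) in replicate 5 only (rank 8766). Among the other snRNA genes, F32B5.9 (signal 85.5), inside the peptidase gene cpz-1, ranked 839, 31, 294 and 433, in all 4 strongest sets.

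In the strongest sets of the replicates, tRNA summits numbered 16, 30, 39 and 43 in replicates 1, 2, 4 and 5 (mean 32 ± 11.97, SD, n = 4), snoRNA summits 27, 24, 31 and 31 (28.25 ± 3.403) and snRNA summits 13, 14, 17 and 13 (14.25 ± 1.89). The tRNA count varied most, being below the snoRNA count in replicate 1 and above it in the other three. The difference of tRNA and snoRNA counts was −11, 6, 8 and 12 (mean 3.75 ± 10.1, exact sign-flip permutation test, two-sided, p = 0.5, adjusted over the 3 contrasts 0.5). tRNA minus snRNA was 3, 16, 22 and 30 (mean 17.75 ± 11.4, exact permutation p = 0.125, adjusted 0.1875). snoRNA minus snRNA was 14, 10, 14 and 18 (mean 14 ± 3.27, exact permutation p = 0.125, adjusted 0.1875). The kinds differ in gene number, and divided by it the order turned. Per 100 genes the strongest sets held 2.61, 4.90, 6.37 and 7.03 tRNA summits, 7.80, 6.94, 8.96 and 8.96 snoRNA summits and 10.1, 10.9, 13.2 and 10.1 snRNA summits. By this measure, chosen after seeing the data, the mean differences were −2.94, −5.82 and −2.88 for the same contrasts, each below 0 in 4 of 4 replicates (exact permutation p = 0.125, not adjusted). With 4 replicates 0.125 is the smallest p that this test can give, so 0.05 cannot be reached. Nothing in the labels says that the replicates came from separate cultures, so these p-values measure only the spread between these samples, which may be technical.

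The strongest set was also taken as a share of the summits of each kind in the whole list of a replicate. The order was then that per 100 genes, and the reverse of that of the mean counts. In replicates 1, 2, 4 and 5 the strongest set held 7.92%, 13.8%, 11.4% and 11.9% of the tRNA summits, 21.1%, 22.6%, 20.8% and 19.5% of the snoRNA summits and 30.95%, 35%, 27.0% and 21.7% of the snRNA summits. In each replicate the snRNA share was the highest and the tRNA share the lowest, and the tRNA range lies below the other two, which overlap. By construction the strongest set holds 3.49% of all peaks of a replicate. In the whole lists, the share of tRNA genes with a summit was 35.5% and 35.9% in replicates 1 and 2 and 57.2% and 60.6% in replicates 4 and 5. The snoRNA and snRNA shares were also higher in replicates 4 and 5 (39.0% and 43.1% against 35.3% and 28.6%, and 41.9% and 41.1% against 28.7% and 27.1%). Each of these lists holds 30000 peaks, against 14525 in the pooled list. The share of protein-coding 5′ ends with a summit was counted for the pooled list and not for these lists. Of the pooled tRNA summits, 10.2% had a summit within 100 bp in all 4 replicate lists, against 17.1% of the snoRNA and 23.9% of the snRNA summits. This share was not counted for all pooled peaks. In replicates 1, 2, 4 and 5 taken singly, 43.02%, 39.6%, 55.02% and 43.99% of all pooled peaks had such a match. The tRNA shares were 37.97%, 42.03%, 74.6% and 71.5%, so only that of replicate 1 was below all peaks. The snoRNA shares (58.1%, 45.7%, 70.5% and 69.8%) and snRNA shares (54.3%, 65.2%, 69.6% and 76.1%) were above it in each replicate.

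**Figure D3:**
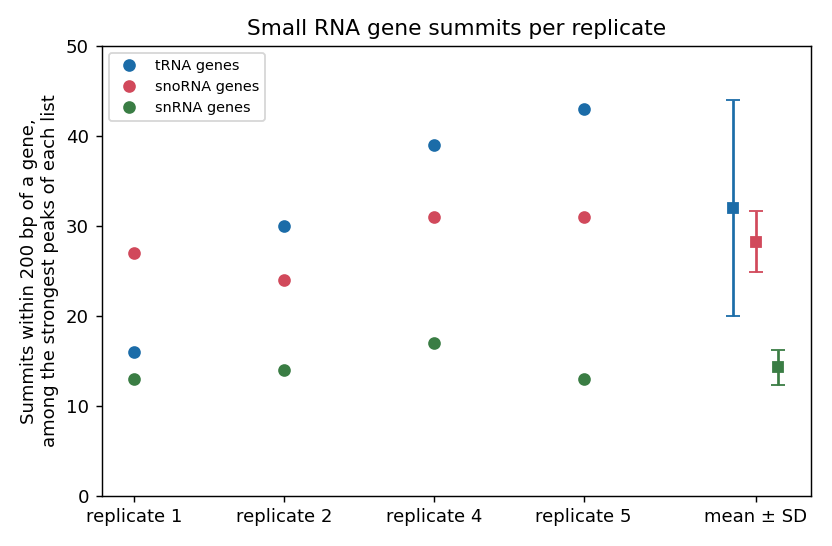
Number of summits within 200 bp of a tRNA, snoRNA or snRNA gene (y axis) among the 1047 strongest nuclear peaks of each replicate, with the mean and SD over the 4 replicates as squares with bars. The tRNA points run from 16 to 43, while the snoRNA points stay between 24 and 31 and the snRNA points between 13 and 17.

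The median position of summits differed between the 3 kinds of gene, but the quartile ranges overlapped. Measured from the first base of the nearest gene along its strand, the median was 18 bp at tRNA genes (quartiles −23.5 and 71), −8 bp at snoRNA genes (−60 and 108) and 73 bp at snRNA genes (−32.5 and 171.5). Among tRNA summits, 38.0% were upstream of the gene, 38.3% inside it and 23.7% downstream. Among optimal tRNA summits these shares were 43.2%, 43.2% and 13.6%, with a median of 11 bp. Among snoRNA summits these shares were 55.0%, 23.3% and 21.7%, and among optimal ones 65.2%, 26.1% and 8.70%, with a median of −28.5 bp. snRNA summits were 34.8% upstream, 30.4% inside and 34.8% downstream. Genes differ in length, with medians of 72, 130 and 109 bp. Of the genes nearest to any summit, 10 tRNA, 10 snoRNA and 9 snRNA genes were the nearest to 2 summits each. Pooled summits were at least 199 bp apart anywhere in the list, so the spacing of such pairs has a lower limit. At the replicates' own matching summits, the tRNA median was 17, 25, 21.5 and 15 bp in replicates 1, 2, 4 and 5, the snoRNA median −7, −5, −17 and −20.5 bp and the snRNA median 49, 149.5, 62.5 and 43 bp. The sign was the same in each replicate, and the snRNA value of replicate 2 lay far from the others. Matching summits lie within 100 bp of the pooled summit and were measured from the same gene. Their medians are thus tied to the pooled ones and are no independent support.

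**Figure D4:**
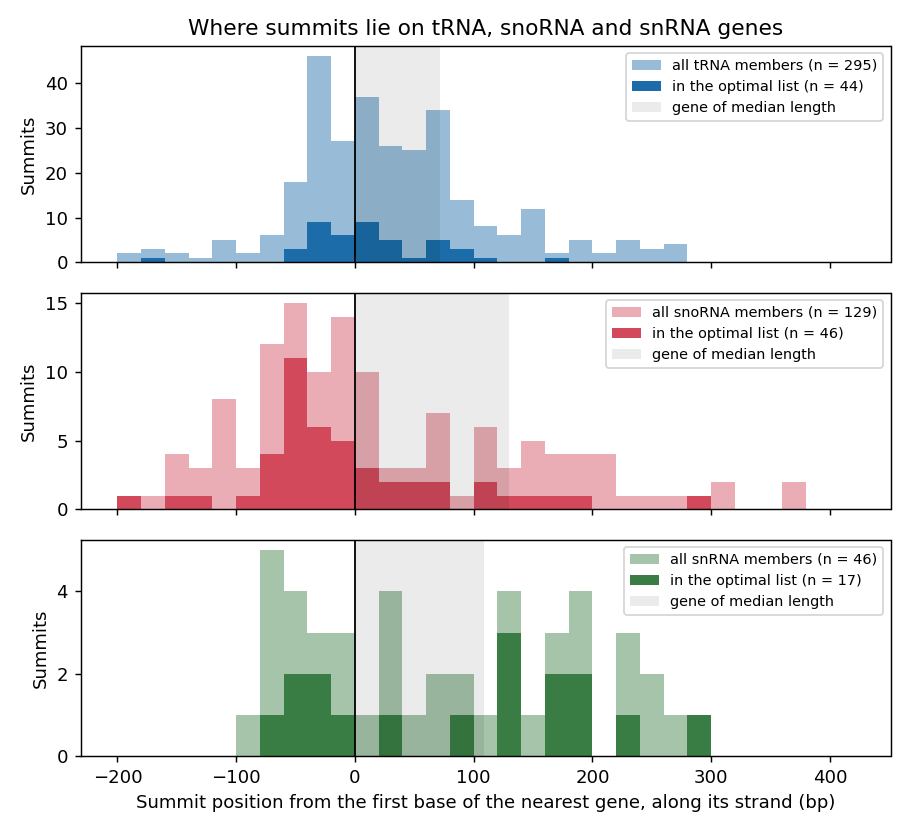
Number of summits (y axis) in bins of 20 bp by position from the first base of the nearest gene along its strand (x axis, bp), for all summits of each kind (pale) and those in the optimal list (dark), with a grey band for a gene of median length. Optimal summits have a median of −28.5 bp at snoRNA genes and 11 bp at tRNA genes, and all summits a median of −8 bp and 18 bp.

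The motif that GATA factors bind is WGATAR, in which W stands for A or T and R for A or G. It was looked for on either strand up to 50 bp from a summit, and in an equally long flank window with its centre 350 bp further left. In the pooled list 25.5% of all summits and 20.6% of their flanks held it. At tRNA summits it was found in 57 of 295 (19.3%, CI 15.2 to 24.2), the same number as in their flanks. snoRNA summits held it in 16 of 129 cases (12.4%, CI 7.78 to 19.2) and 21.7% of flanks, and snRNA summits in 8 of 46 (17.4%, CI 9.09 to 30.7) and 19.6% of flanks. In the optimal list 39.4% of all summits held the motif, but 5 of 44 at tRNA genes, 4 of 46 at snoRNA genes and 2 of 17 at snRNA genes. The narrower form TGATAA, which is WGATAR with T as W and A as R, was at 1 optimal summit of each kind. It was at 25.6% of all optimal summits.

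Taking each replicate's strongest set, the motif was at 5.36%, 19.1%, 13.8% and 17.2% of the summits of all 3 kinds together in replicates 1, 2, 4 and 5, and in 25%, 22.1%, 24.1% and 18.4% of their flanks. The summit share was the lower one in each replicate. The difference was −19.6, −2.94, −10.3 and −1.15 percentage points (mean −8.52 ± 8.42, SD, n = 4, exact sign-flip permutation test, two-sided, p = 0.125, the smallest it can give). At 500 bp from a gene it was −4.29 points, below 0 in 3 of 4 replicates (exact permutation p = 0.5), for TGATAA −1.21 points, below 0 in 2 of 4 (exact permutation p = 0.875), and without replicate 1 −4.81 points. All strongest peaks as a whole went the other way, with 27.9%, 27.7%, 44.03% and 43.6% at summits and 21.2%, 22.9%, 21.6% and 22.6% in flanks. The sets held 56, 68, 87 and 87 summits at these genes, so the share in replicate 1 rests on 56 windows. Summit windows lie on or near these genes by the choice of summits, and flank windows are centred 350 bp from the summit. The part of the genes' own sequence in the difference was not tested.

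**Figure D5:**
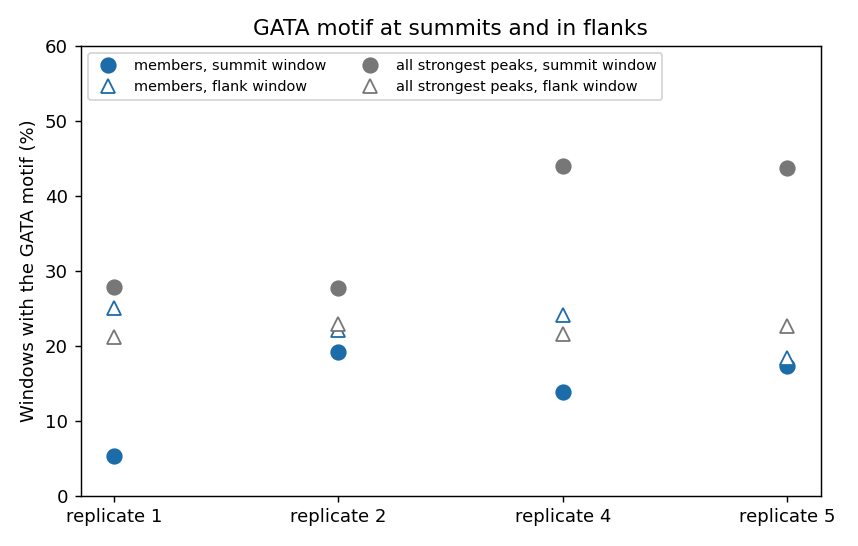
Percentage of windows with WGATAR (y axis) within 50 bp of summits (filled circles) and in flanks (open triangles) for the strongest peaks of each replicate, at tRNA, snoRNA and snRNA genes (members, blue) and for all strongest peaks (grey). Blue circles lie between 5.36% and 19.1%, below the blue triangles and the grey circles in every replicate.

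The B box word GTTCGANNC, searched on both strands, was at 87 of 295 tRNA summits (29.5%) and in 2.71% of their flanks, against 1.47% of all pooled summits. It lies inside 441 of 612 tRNA genes (72.1%), starting 52 bases after the first at the median. The tRNA summits were chosen to lie near these genes, so the excess of the word over flanks and over all summits is largely set by the choice. Genes with a summit held it in 69.8% of cases and genes without one in 74.6%. At snRNA summits it was found in 0 of 46 windows (CI up to 7.71%). At snoRNA summits it was in 10 of 129 (7.75%), of which 9 were optimal (9 of 46, 19.6%). None of the snoRNA summits lay within 200 bp of an annotated tRNA gene.

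The word also stood before snoRNA genes, as in the sequences of M106.6 and C41C4.11. In the 150 bp before the gene, either strand, it was present at 11 of 46 snoRNA genes with an optimal summit (23.9%, CI 13.9 to 37.9), at 12 of 121 with any summit (9.92%, CI 5.76 to 16.5), at 7 of 225 without a summit (3.11%, CI 1.52 to 6.28) and at 0.611% of protein-coding genes. On the strand of the gene it stood before 18 snoRNA genes in all. Of these, 12 had a summit and 11 an optimal one, with signals from 40.4 to 71.6. In the 11 it started 9 to 44 bp before the gene, with a median of 14 bp, and the summits were between 90 bp upstream and 16 bp inside. Besides M106.6 and C41C4.11 the strongest were Y39G10AR.24 and F32E10.10 (signal 61.2), the last named after its value was seen. An A box word, TGGCNNAGT, was in the same window at 15 of 121 snoRNA genes with a summit (12.4%) and 10 of 225 without (4.44%), against 0.966% of protein-coding genes. Within 50 bp of tRNA summits this word was found in only 18 of 295 cases (6.10%), against 29.5% for the B box word. WGATAR was before 15 of 121 snoRNA genes with a summit (12.4%), 68 of 225 without (30.2%) and 35.1% of protein-coding genes.

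Further words were chosen after the sequences were seen, and are given as a description. GCGGAAC was before 18 of 121 snoRNA genes with a summit (14.9%) and 7 of 225 without (3.11%), and 0.731% of protein-coding genes. AACCCGC was before 16 (13.2%) and 6 (2.67%) of these snoRNA genes and 0.486% of protein-coding genes. Its reverse complement can overlap a B box word, as it does in M106.6, and on the strand of the gene it was before 12 and 5. Before snRNA genes, AACCCGC was present at 16 of 38 with a summit (42.1%) and 17 of 91 without (18.7%), and GCGGAAC at 10 of 38 (26.3%) and 22 of 91 (24.2%). Many snRNA genes are copies of each other, so these genes are not independent.

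Protein-coding promoters overlapped with part of these summits. A promoter, taken as 1000 bp upstream to 200 bp downstream of a protein-coding 5′ end, held 23.1% of tRNA summits, 34.9% of snoRNA summits and 43.5% of snRNA summits, against 33.8% of all pooled summits. Of these summits, 1, 3 and 1 were nearer to a protein-coding 5′ end than to the gene. All were chosen to lie within 200 bp of the gene, and the 113, 30 and 14 inside it cannot be nearer to a 5′ end. These counts are therefore largely set by the choice and cannot tell to which of the 2 a summit belongs. Summits over 1000 bp from any such 5′ end made up 61.4%, 55.0% and 43.5%, and of these 16.02%, 36.6% and 35% were optimal, close to the shares over all summits.

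On chromosomes, tRNA summits followed their genes. X held 138 of 295 tRNA summits (46.8%) and 276 of 612 tRNA genes (45.1%), where 20.2% of all pooled summits were on X. In the optimal list 52.3% of tRNA summits were on X. Leaving out all summits at the 3 kinds of gene, the X share of the optimal list was 24.0%, against 23.9% with them. snoRNA summits were rare on X, with 5 of 129 (3.88%, CI 1.67 to 8.75), where 33 of 346 genes lie (9.54%), and none of the 46 optimal ones was there.

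Genes for the proteins that work with these RNAs were counted by the same promoter rule, in lists chosen with earlier results of these data known. Among all protein-coding genes, 24.2% had a pooled and 2.95% an optimal summit in a promoter. Of 27 genes found in the list for RNA polymerase III and its factors, 11 had a pooled summit. These include larp-1, sftb-1 and nrde-2, for a La-related RNA-binding protein, a splicing factor and a protein of nuclear RNA interference, none of them a subunit of the polymerase. The 1 optimal one was at larp-1 (signal 62.1). Of 27 genes of snRNA-protein complexes, 11 had a pooled summit. The 1 optimal gene was snr-4, an Sm protein gene, whose 2 optimal summits (signals 72.2 and 65.7) also lay within 200 bp of a snRNA gene and are among the 46. Of 9 genes of snoRNA-protein complexes, 6 had a pooled summit and 2 an optimal one, fib-1 (signal 61.0), for the methyltransferase fibrillarin, and nola-3 (signal 45.9), for a protein of H/ACA complexes. None of these 4 genes' optimal summits held WGATAR within 50 bp.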

How the data were processed

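The members and gene lists were chosen with earlier results of these data known. Per the labels, the 6 libraries are ELT-3 ChIP-seq of whole L3 larvae, and per the file headers in the listings the authors called peaks on each replicate, on the pooled reads and for a final list that passed the irreproducible discovery rate, each against 1 control of another experiment, not analysed here. The list of replicate 2 was assigned to it because the listings deposited with its 3 libraries name the alignment that the peaks were called on. The deposited signal per peak is the authors' peak strength, used only within 1 list. The deposited −log10 q-value is given for 1 summit and was used in no comparison between peaks. The sources used here do not give the aligner, the peak caller, their versions or the depth. The ce10 lists were not used.

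Genes and biotypes came from Ensembl release 115 on WBcel235, which is ce11, and gene names and isotypes from RefSeq by WormBase ID, since Ensembl gives some snRNA genes a shared name. All 612 nuclear tRNA, 346 snoRNA and 129 snRNA genes matched, and the 22 mitochondrial tRNA genes were left out. Coordinates count from 1. Motifs were searched in the genome sequence on both strands. Shares have Wilson 95% intervals, which cover counting error only. Replicates were compared by the exact sign-flip permutation test, with Benjamini-Hochberg adjustment over the 3 contrasts (Python 3.11.15, numpy 2.4.6, scipy 1.17.1, matplotlib 3.10.9). The code was checked on simulated data. The named genes were those nearest to the 8 strongest peaks of each kind, and the sls- genes at optimal peaks, where at least 80% of words of 36 bases within 100 bp of the summit occur at 1 place in the genome. A further snRNA gene that this rule names is not reported here. Of the symbols listed for protein-coding genes, 27 of 34, 27 of 28 and 9 of 10 were found. Alternatives were other distances, other numbers of peaks, other motif windows, the stricter subsets named in the text, leaving out each replicate and, added after seeing the data, counts per 100 genes.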

Additional observations from a re-analysis of the deposited data

Results flagged for a closer look

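Replicate 5 listed 14 mitochondrial peaks among its 30000, and replicates 1, 2 and 4 listed 0. These peaks were used in no comparison, and they stand out because 14 is above a fixed limit of 3 counts. Of the 14 summits, 4 lay within 200 bp of a mitochondrial tRNA gene, where 36.5% of mitochondrial bases lie so near to one. Their median rank was 34.5. In none of 21 quantities compared across the 4 replicates did 1 replicate stand far from the other 3 by Dixon's criterion.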

How the results depend on the processing

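The alternatives gave 92 values over 13 results. Of these, 67 stayed close to the reported value or kept its sign, 20 moved and 5 changed sign. For differences per replicate only the sign of the mean was compared, whatever its size. Counting only summits inside the gene left 113 tRNA, 30 snoRNA and 14 snRNA summits, and counting only those over 1000 bp from a protein-coding 5′ end left 181, 71 and 20. Requiring at least 80% unique words left 110 tRNA summits, of which 7.27% were optimal. With 0.5 times as many top peaks as the optimal list holds, 7.12% of tRNA and 17.8% of snoRNA summits were in it (3.60% of all peaks), and with 2 times as many, 33.9%, 48.8% and 58.7% of tRNA, snoRNA and snRNA summits (14.4% of all peaks). These shares follow from the number of peaks taken. The tRNA minus snoRNA count became −0.75 with 0.5 times as many peaks per replicate and −0.75 at 500 bp, and the cause was not tested. Per 100 genes, a measure chosen after seeing the data, tRNA minus snoRNA was −2.94, tRNA minus snRNA −5.82 and snoRNA minus snRNA −2.88, since the kinds differ in gene number. Without each replicate in turn it was 1 to 8.67, tRNA minus snRNA 13.7 to 22.7, snoRNA minus snRNA 12.7 to 15.3 and the GATA difference −10.98 to −4.81 points. The median position of tRNA summits was 26 bp where 1 gene lay within 200 bp, 11 bp in the optimal list and 25 bp at the summits of replicate 2. That of snoRNA summits was −28.5 bp in the optimal list, −17 bp at the summits of replicate 4 and −20.5 bp at those of replicate 5, and that of snRNA summits 149.5 bp at those of replicate 2. The GATA difference was −4.29 points at 500 bp and −1.21 points for TGATAA, where 3 and 2 of 4 replicates were below 0. No paired analysis was possible because there is 1 group, so no groups share replicate numbers, and the differences above were taken within each replicate. Depth is unknown, so weak summits that were not called cannot be told from absent ones, and repeated tRNA sequence limits which gene a summit belongs to.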
